A study of Homo sapiens with 12 samples.

Results

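HD-MyZ is an established human cell line of Hodgkin lymphoma, and the measurement described here is what perifosine alone did to its gene expression. The values come from 6 of the 12 arrays of the series: 3 arrays (A, B and C) of cells given 10 µM perifosine for 24 hours and 3 arrays (A, B and C) of control cells given neither drug and titled with the same time, taken by their sample titles. The controls carry no treatment label and no vehicle is named for them. The other 6 arrays, 3 of 10 µM perifosine with 5 µM sorafenib and 3 of 5 µM sorafenib alone, each at 24 hours, entered through the estimate of the spread and through direct comparisons given last. Nothing in the labels says whether the 3 replicates of a group came from separate cultures. The p-values therefore measure only how far these arrays spread, which may be technical. Every group is the same single cell line grown in flasks, with no other cell type added.

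Perifosine is an alkylphospholipid, a lipid-like drug that inserts into membranes and keeps the kinase AKT from being recruited to them. AKT normally restrains FOXO transcription factors and drives mTORC1, the kinase complex that promotes translation, nucleotide supply and entry into S phase. Alkylphospholipids are also known to disturb phosphatidylcholine synthesis and the traffic of cholesterol inside cells. The genes below are ordered by these roles after the largest changes have been described.

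The values are deposited Illumina beadchip intensities with 1 probe kept for each of 18852 genes, no background subtracted, and a lower end of 170. An intensity under 512 is called near background here, which held for 49.1% of the genes on average over the 12 arrays, and changes of such genes on the log2 scale are understated. Precision is limited by the small number of arrays. The 3 perifosine arrays resembled one another closely, with mean correlations of 0.991 to 0.992 over 9587 brighter genes. Control C correlated with its group mates at 0.968, against 0.992 between those mates, and sorafenib B and combination A also stood apart. The fit was therefore repeated in the other 9 arrays, and counts there are given beside those of all 12 where they differ. Since the 3 left out stood apart in these same data, the spread in the 9 is likely understated and counts there too high.

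The label of a Hodgkin cell was set against 16 marker genes, of which 8 were near background and 8 above it. TNFRSF8, which encodes the Hodgkin cell antigen CD30, was at 281 ± 11.9 in perifosine arrays and 286 ± 23.7 in control arrays (SD, n = 3 each). CD40 was at 281 ± 16 and 258 ± 3.4, so both of these markers were near background. FUT4, which makes the CD15 epitope, was well above it at 1886 ± 53.6 and 1860 ± 153. All 9 T cell markers and all 9 B cell markers with a probe were near background in both groups. Of 10 fibroblast and stroma markers 6 were above background, among them COL1A2 at 21637 ± 1570 with perifosine and 24340 ± 5237 without. CD68, a macrophage and lysosome marker, was bright too, at 17887 ± 291 and 12422 ± 730 (log2 change 0.53, limma adjusted p = 0.287). The other 9 of 10 monocyte and macrophage markers were near background in both groups. In the 9 arrays CD68 rose, at 0.50, as did the Hodgkin list's TRAF1 and JUNB. The cells are therefore called HD-MyZ cells below, by name.

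Perifosine alone changed few genes past the threshold, and most of them were higher. In limma's fit of all 12 arrays, 56 of 18852 genes had an adjusted p under 0.05 (0.297%), of which 38 rose (0.202%) and 18 fell (0.0955%). At least 2-fold changes numbered 18 upward (0.0955%) and 7 downward (0.0371%). In all 56 the perifosine and control arrays did not overlap, which also held for 17.5% of all genes, 8.25% with perifosine above and 9.24% with it below. The median log2 change of all genes was −0.0018. The plot of every gene's change against its p-value shows the rises reaching further than the falls.

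**Figure D1:**
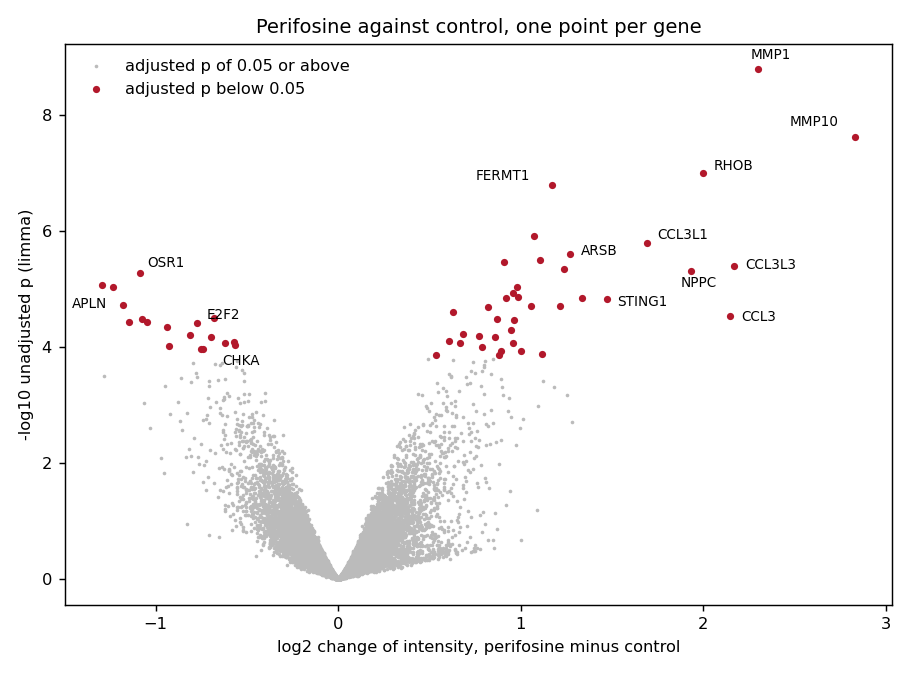
Each point is a gene, with its log2 change of intensity, perifosine minus control, on the x axis and −log10 of limma's unadjusted p on the y axis; red points have an adjusted p under 0.05. The 38 rises reach a log2 change of 2.83 at MMP10, while the 18 falls reach −1.29, where the perifosine values are near background.

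How many genes passed depended on which arrays were fitted. Without control C, sorafenib B and combination A, 293 genes passed (1.55%), 178 higher (0.944%) and 115 lower (0.61%), and all 56 were among them. Leaving out control A, B or C left 21, 13 or 27 genes, leaving out perifosine A, B or C left 17, 11 or 14, and leaving out sorafenib B, which enters only through the spread, gave 155. Falls were few when a perifosine or control array was left out. There were 0 among the genes called without perifosine B or without perifosine C, and 3 to 5 without perifosine A or a control array. Without sorafenib B, 61 of the 155 were falls. A fit of the 6 perifosine and control arrays alone gave 126, as the plot of counts by setting shows. None of the 56 called genes changed direction in these settings. Leaving out arrays could not have reversed them, since their groups did not overlap. Of the 56, 10 kept an adjusted p under 0.05 whichever perifosine or control array was left out: MMP10, MMP1, CCL3L3, CCL3L1, RHOB, ARSB, FERMT1, VEGFC, ESAM and BHLHE40. Each of the other called genes lost it without at least 1 of those arrays.

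**Figure D2:**
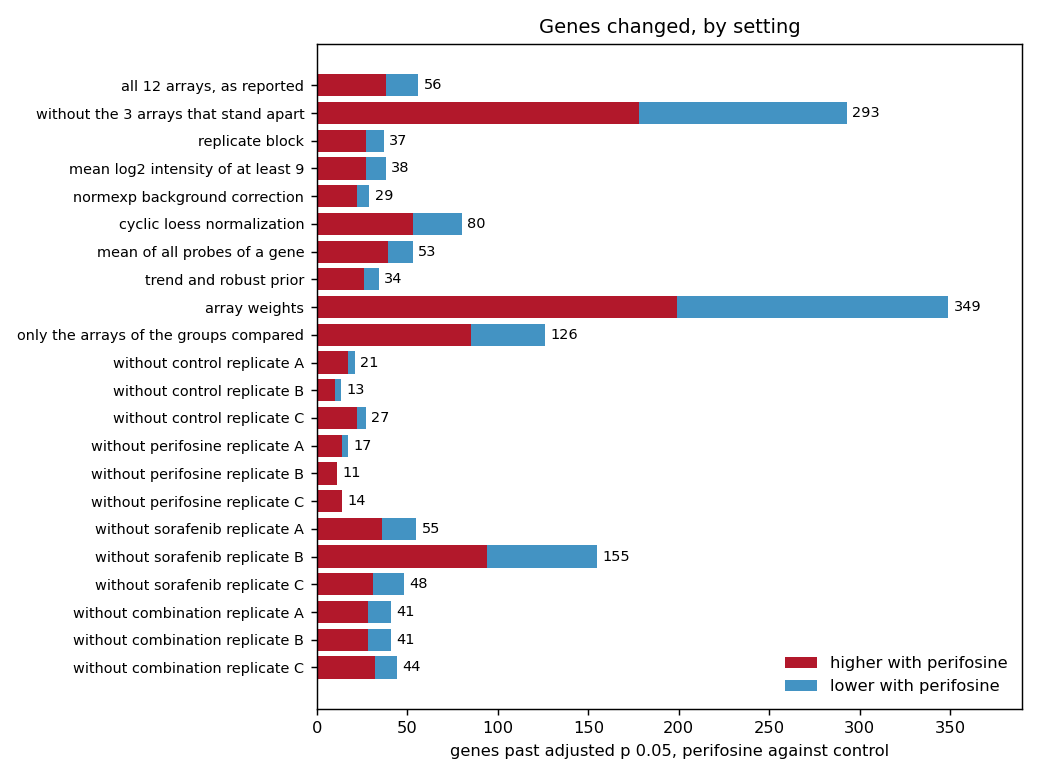
Bars give the number of genes past adjusted p 0.05 for perifosine against control under each setting, split into genes higher (red) and lower (blue) with perifosine. The count is 56 with all 12 arrays, 293 without the 3 arrays that stood apart, and 11 to 27 when a perifosine or control array was left out.

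The largest rises were in secreted matrix-degrading enzymes. MMP10, the gene of stromelysin-2, had intensities of 8626, 8019 and 10699 in perifosine arrays A, B and C, against 1398, 1273 and 1155 in control arrays A, B and C, a log2 change of 2.83 ± 0.21 (SE, limma adjusted p = 0.000226), or 7.12-fold. MMP1, the gene of interstitial collagenase, had 1412, 2141 and 1770 with perifosine, against 327, 380 and 360 in control, a log2 change of 2.30 ± 0.14 (limma adjusted p = 3.13e-05). For both genes every perifosine array lay far above every control array, and the MMP1 controls were near background. With normexp background correction the MMP1 change was 2.98. Of the 28 metalloproteinases, their TIMP inhibitors and relatives measured, these 2 rose and 0 fell, the median log2 change was 0.06, and 15 were near background. The neighbouring stromelysin gene MMP3 averaged 536 with perifosine and 532 in control, a log2 change of 0.01. MMP14, the membrane-anchored collagenase, had 2477, 3648 and 3061 with perifosine, against 1417, 1725 and 1744 in control (log2 change 0.90, limma adjusted p = 0.094). Its groups did not overlap but it missed the threshold, and without the 3 arrays that stood apart it passed at 0.95.

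Chemokine genes of the CCL3 group came next. CCL3, a chemokine that attracts leukocytes, had 3397, 4019 and 6207 with perifosine, against 1004, 943 and 1032 in control (log2 change 2.15 ± 0.32, limma adjusted p = 0.0204). CCL3L3 had 4679, 5668 and 8951 against 1336, 1398 and 1392 (2.17 ± 0.27, limma adjusted p = 0.00744), and CCL3L1 had 2138, 1974 and 3064 against 815, 662 and 715 (1.69 ± 0.19, limma adjusted p = 0.00506). Perifosine C was the highest array for each, and the groups did not overlap. These are near-identical gene copies whose probes may read each other's transcripts, so the division among them is uncertain, and the CCL3 call ended when any one perifosine or control array was left out. Of 23 CC chemokine genes measured these 3 rose and 0 fell, with a median of 0.08, and 19 were near background. CCL4, the usual partner of CCL3, was at 264 with perifosine and 260 in control, both near background.

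Interleukin and CXC chemokine genes did not pass. IL6 had 2548, 2944 and 1730 with perifosine, against 1171, 1191 and 686 in control (log2 change 1.25 ± 0.27, limma adjusted p = 0.114). CXCL8, the interleukin-8 gene, had 21206, 21155 and 15052 against 8990, 11436 and 12474 (0.80 ± 0.19, limma adjusted p = 0.175). In both genes all perifosine arrays were above all control arrays, yet neither passed, and 0 of 23 CXC chemokine and IL6-type genes did (median 0.06). PTGS2, the cyclooxygenase-2 gene and an NF-kB target, was at 1.18 (limma adjusted p = 0.0939). Of the 21 NF-kB subunits and targets 0 passed, with a median of 0.12. In the 9 arrays IL6 and CXCL8 passed at 0.99 and 0.90, as did 2 NF-kB genes, PTGS2 at 1.33 and TRAF1 at 0.93.

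**Figure D3:**
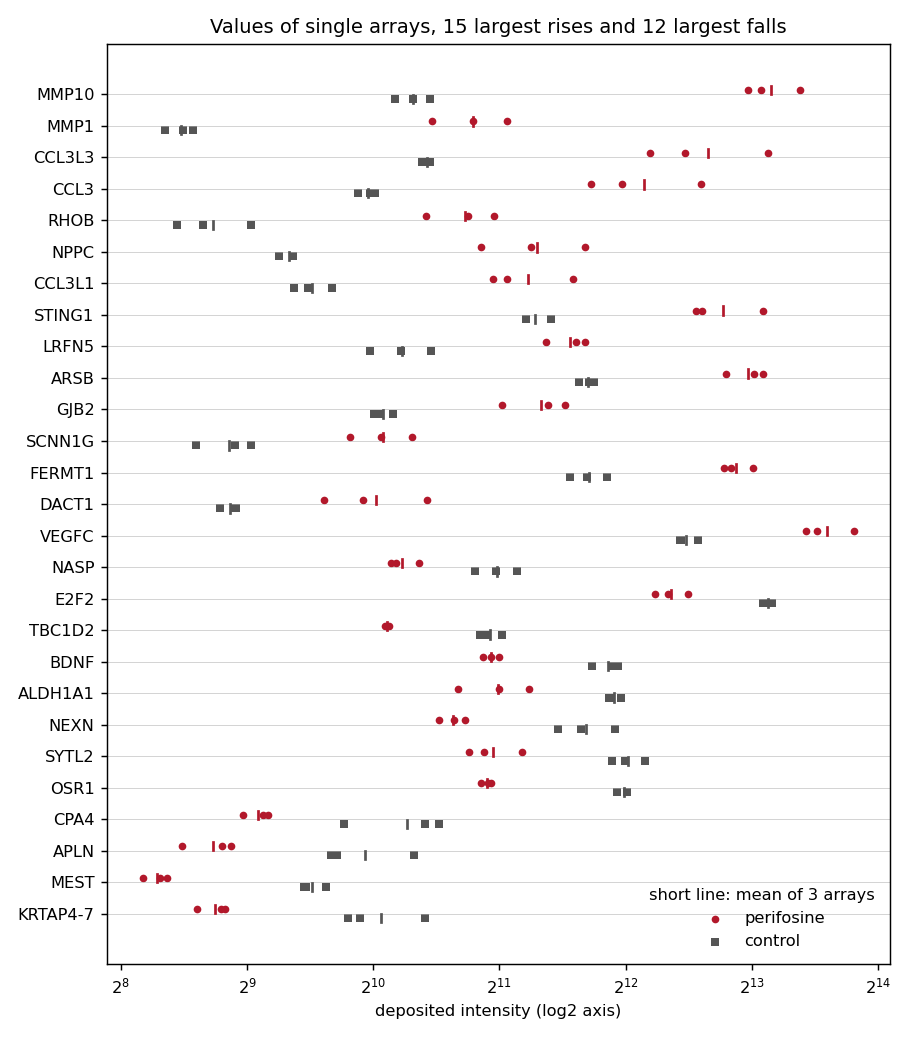
Deposited intensity of each array (log2 axis) for the 15 largest rises and 12 largest falls past the threshold; red circles are the 3 perifosine arrays, grey squares the 3 control arrays, and short lines their means. The 27 genes were chosen among those whose groups do not overlap, and KRTAP4-7, MEST and APLN fall to near background.

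The plot of single arrays for the largest changes includes several surface, hormone and vascular genes. NPPC, which encodes the precursor of C-type natriuretic peptide, had 1856, 2441 and 3270 with perifosine, against 658, 610 and 661 in control (log2 change 1.93 ± 0.24, limma adjusted p = 0.00765). HPGD, which breaks down prostaglandins, had 729, 557 and 844 against 348, 378 and 335 (0.99 ± 0.14, limma adjusted p = 0.0134), with controls near background. These 2 of 17 genes of prostaglandin and natriuretic peptide signalling rose, 0 fell and the median was 0.00. There were 4 risers in the 9 arrays, the others being PTGS2 and FURIN. VEGFC, the lymphatic growth factor that binds VEGFR3, had 11728, 11040 and 14365 with perifosine, against 5514, 6102 and 5551 in control (1.11 ± 0.13, limma adjusted p = 0.00706). APLN, the gene of the vascular peptide apelin, had 469, 446 and 358 against 1284, 812 and 839, and fell by 1.18 on the log2 scale (limma adjusted p = 0.0153). VEGFC and APLN were the 1 riser and the 1 faller among 17 angiogenic factors, whose median was −0.09, and in the 9 arrays 3 rose and 3 fell. THBS1, the anti-angiogenic thrombospondin gene, was at −0.95 (limma adjusted p = 0.0932).

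A pair of genes for attachment to the matrix rose. FERMT1, which encodes the integrin activator kindlin-1, had 7310, 7033 and 8236 with perifosine, against 3026, 3700 and 3319 in control (log2 change 1.17 ± 0.11, limma adjusted p = 0.000766). ITGB3, the integrin β3 subunit, had 779, 973 and 755 against 430, 383 and 472 (0.96 ± 0.13, limma adjusted p = 0.0128), with controls near background. Of 22 kindlins, leupaxin and integrins measured these 2 rose and 0 fell, 17 had a positive change, and the median was 0.20. ITGA2 and ITGA5 rose beside them in the 9 arrays, making 4. ITGA2, the collagen receptor subunit α2, had 27154, 34877 and 38972 with perifosine, against 13292, 12499 and 21549 in control (1.12 ± 0.23, limma adjusted p = 0.0818), control C being the highest control. ESAM, a junctional adhesion molecule and 1 of 8 endothelial markers, had 905, 980 and 969 against 433, 534 and 401 (1.07 ± 0.12, limma adjusted p = 0.00467). Its control mean was near background. The defining endothelial markers CDH5 and VWF were near background at 259 and 256 with perifosine and 273 and 271 in control, and 6 of the 8 markers were near background. The summed intensity of those 8 ran from 4646 to 6362 in perifosine arrays and 3860 to 4844 in control arrays.

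RHOB, a small GTPase that acts on actin and endosomes, had 1726, 1987 and 1367 with perifosine, against 522, 349 and 402 in control (log2 change 2.00 ± 0.17, limma adjusted p = 0.000644). Every perifosine array lay well above every control array, and the control mean was near background. Among other genes of the cytoskeleton past the threshold, BAIAP2L1, which links membranes to actin, rose by 0.86, KANK1 by 0.67 and TACC2, a centrosome protein, by 0.53. NEXN, an actin filament binder, had 1594, 1697 and 1471 against 3198, 2832 and 3873, and fell by 1.05 (limma adjusted p = 0.0209). Actin-related genes thus appeared on both sides.

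An ERK feedback gene and a pair of genes from the EGF and plasminogen list rose. DUSP6, a phosphatase that switches ERK off, had 8138, 7490 and 7232 with perifosine, against 4329, 3489 and 4684 in control (log2 change 0.88 ± 0.16, limma adjusted p = 0.0471). It was the only one of 20 ERK feedback and PEA3 genes to pass in the fit of 12 arrays, where the median was 0.06, and its call ended when any one perifosine or control array was left out. Without the 3 arrays that stood apart 4 of these 20 rose, SPRY4, SPRED1 and DUSP5 beside it, and the median was 0.20. HBEGF, a ligand of the EGF receptor, had 19552, 21771 and 19498 against 13046, 13358 and 12820 (0.63 ± 0.09, limma adjusted p = 0.0184). THBD, which encodes thrombomodulin, an anticoagulant receptor, had 6152, 6194 and 7132 against 3397, 2596 and 3436 (1.05 ± 0.15, limma adjusted p = 0.0153). HBEGF and THBD were the 2 risers of 17 EGF family and plasminogen activation genes, 0 fell, and the median was 0.04. A fit of the 9 arrays gave 5 rises and 1 fall, of the EGF family ligand NRG1. Of 18 AP-1 and EGR factors 0 passed, with a median of 0.18: EGR1 was at 0.68 (limma adjusted p = 0.183), JUNB at 0.73 (0.281) and FOSB at 0.71 (0.209). FOSB and JUNB rose in the 9 arrays, where the median was 0.08.

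Among genes of the AKT, FOXO and mTORC1 lists, a brake on mTORC1 rose, and FOXO targets passed or not depending on the arrays fitted. Whether AKT had a part in these changes was not tested. Of 26 FOXO factors and targets 0 passed in the 12 arrays, with a median log2 change of −0.03, while in the 9 arrays KLF2, KLF6 and GADD45A rose and the median was 0.03, of the opposite sign. KLF2, the member with the lowest p, had 30690, 27493 and 23809 with perifosine, against 16586, 15642 and 14735 in control (0.80 ± 0.15, limma adjusted p = 0.0606). TSC22D3 (GILZ), also raised by FOXO3, was at 0.82 (limma adjusted p = 0.213). Of 21 AKT, PI3K and mTOR components 0 passed (median 0.02), and INPP4B, a phosphatase that removes a PI3K product, was at −0.79 (limma adjusted p = 0.0555). INPP4B fell in the 9 arrays, at −0.81, and the median there was −0.02. DDIT4 (REDD1), which restrains mTORC1, had 4641, 4862 and 5113 against 3044, 2143 and 2379, a rise of 0.96 ± 0.15 (limma adjusted p = 0.0208). DDIT4 was the 1 riser among 15 mTORC1 brakes (0 fell, median −0.05) and among 33 ATF4 targets (0 fell, median 0.08), since both lists hold it. SESN2 rose with it among the brakes in the 9 arrays, and 5 ATF4 targets rose and 1 fell. TRIB3, an AKT-binding pseudokinase and ATF4 target, had 3956, 3656 and 3558 against 2590, 2799 and 3167 (0.39, limma adjusted p = 0.429), and SESN2 was at 0.95 (limma adjusted p = 0.183). The groups of TRIB3 and SESN2 did not overlap, but neither passed in the 12 arrays.

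In membrane lipid pathways 1 gene passed, and it fell. CHKA, choline kinase α, which commits choline to phosphatidylcholine, had 1773, 1714 and 1732 with perifosine, against 2739, 2620 and 2651 in control, and fell by 0.62 (SE 0.10, limma adjusted p = 0.0355). It was the 1 faller of 26 phosphatidylcholine synthesis genes, 0 rose, and the median was 0.06. Another CHKA probe above background was at −0.25. Of 23 genes of cholesterol synthesis and uptake, 22 had a positive change and the median was 0.34, while 0 passed. IDI1, an isoprenoid enzyme of the mevalonate pathway, had 2149, 2366 and 2785 against 1212, 1471 and 2094 (0.64, limma adjusted p = 0.266). NPC1, which exports cholesterol from lysosomes, had 7382, 7669 and 7606 against 4686, 4891 and 5652 (0.58, limma adjusted p = 0.239). In both genes control C was the highest control array and all perifosine arrays were above it. Relative to the control mean, the list's median stood at 0.26, 0.39 and 0.37 in perifosine A, B and C, against −0.11, −0.05 and 0.13 in control A, B and C. Without the 3 arrays that stood apart 4 of the 23 rose, HMGCS1, IDI1, NSDHL and NPC1. Of 19 fatty acid synthesis genes (median −0.03) and 24 sphingolipid enzymes (median −0.04) 0 passed, and in the 9 arrays these medians turned to 0.03 and 0.05.

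ARSB, a lysosomal sulfatase that trims dermatan and chondroitin sulfate, had 7098, 8726 and 8288 with perifosine, against 3449, 3170 and 3359 in control (log2 change 1.27 ± 0.15, limma adjusted p = 0.00665). It was the 1 riser of 30 lysosome and autophagy genes, 0 fell, and their median was 0.13. GAA, another lysosomal hydrolase, was at 0.44 (limma adjusted p = 0.501) and LAMP1, a lysosomal membrane protein, at 0.28 (0.732). ARSB thus stood above the rest of its list in size.

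Of the lists, DNA replication held the most falls. E2F2, a transcription factor of S phase entry, had 5162, 5781 and 4802 with perifosine, against 8702, 9162 and 8948 in control, and fell by 0.77 (SE 0.12, limma adjusted p = 0.021). CDT1, which licenses replication origins, had 4130, 3857 and 3751 against 6543, 6249 and 6813, and fell by 0.74 (limma adjusted p = 0.0396). UNG, which removes uracil from DNA, had 5106, 6196 and 5191 against 8734, 9079 and 8799, and fell by 0.70 (limma adjusted p = 0.031), or −0.32 when all its probes were averaged. Their groups were well separated. Of 38 replication and G1/S genes measured, these 3 fell and 0 rose, 37 had a negative change, and the median was −0.44. FEN1, the flap endonuclease, was at −0.64 (limma adjusted p = 0.0555), the sliding clamp gene PCNA at −0.61 (0.111) and ORC1, an origin recognition subunit, at −0.64 (0.175). Without the 3 arrays that stood apart 9 of the 38 fell.

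The shift of the replication list was seen in each array. Relative to the control mean its median was −0.44, −0.41 and −0.43 in perifosine A, B and C, against −0.09, −0.01 and 0.12 in control A, B and C. Outside the list, the histone chaperones NASP (−0.75) and CHAF1B (−0.57) fell too. Mitosis and spindle genes had a median of −0.21 over 34 genes with 0 past the threshold (−0.12 in the 9 arrays), and there the perifosine arrays spread, at −0.09, −0.20 and −0.34, against −0.02, −0.09 and 0.13 in control. CCNB1, the mitotic cyclin, was at −0.46 (limma adjusted p = 0.553). For 31 ribosome biogenesis genes the median was −0.22, with 26 negative and 0 past the threshold. The plot of the lists shows the replication genes lowest and the cholesterol genes highest by their medians.

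**Figure D4:**
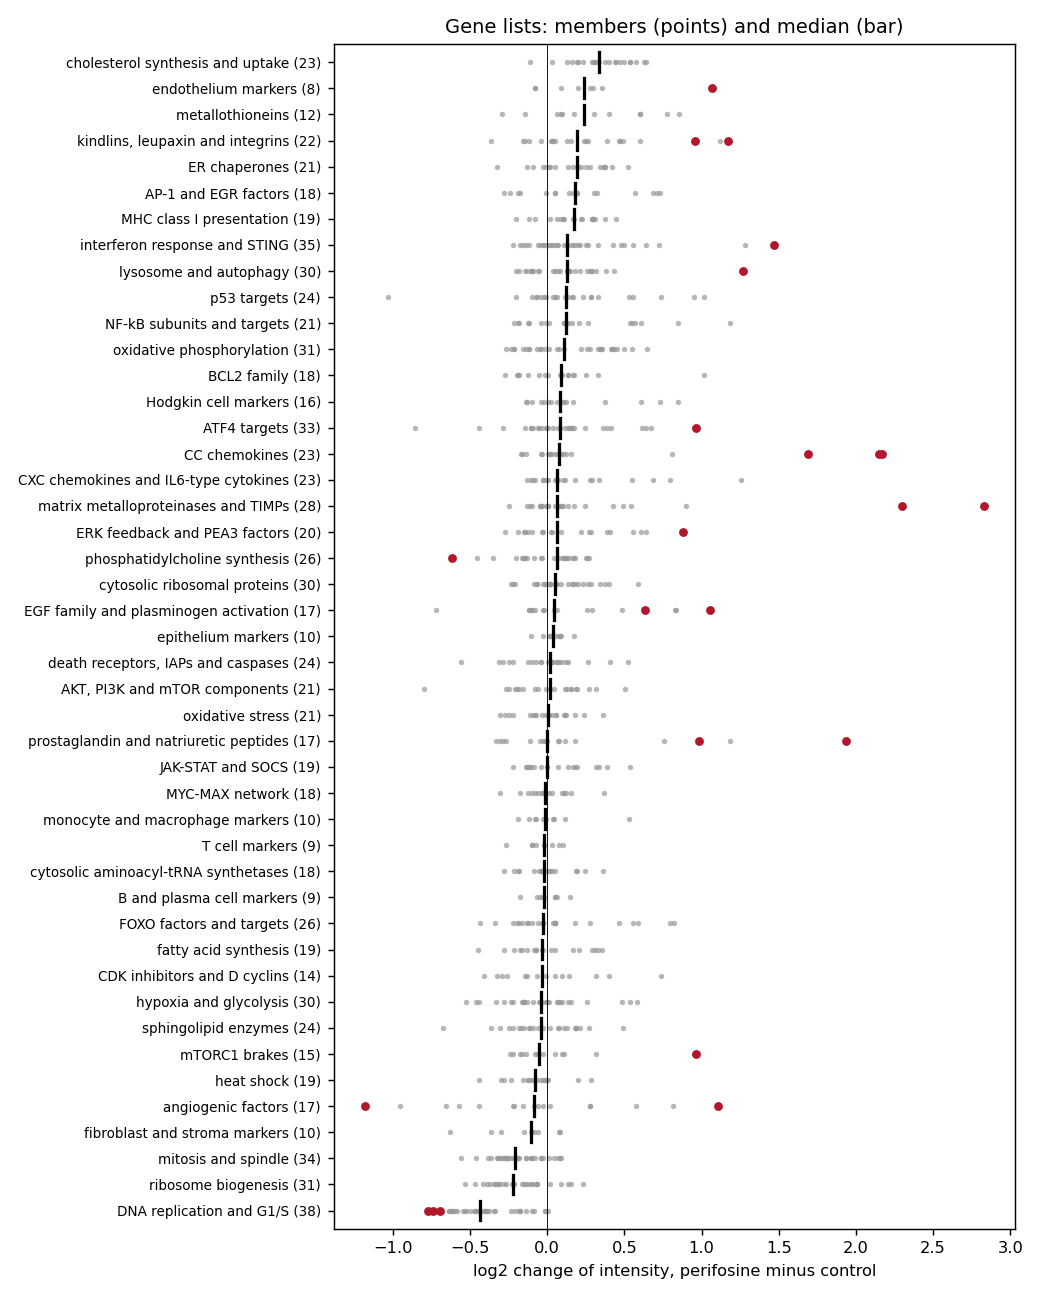
Log2 change, perifosine minus control, of each measured member (points) of the gene lists reported, with the list's median as a bar and the number measured in brackets; red points passed adjusted p 0.05. Medians run between −0.44 for DNA replication and G1/S and 0.34 for cholesterol synthesis and uptake, and most red points lie far from their list's bar.

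No regulator of cell cycle arrest or death on the lists passed in the fit of 12 arrays. CDKN1A, the gene of the CDK inhibitor p21, had 13557, 12116 and 14565 with perifosine, against 8463, 6740 and 9040 in control (log2 change 0.74 ± 0.14, limma adjusted p = 0.0542). It missed the threshold with groups that did not overlap. Of 14 CDK inhibitors and D cyclins 0 passed (median −0.04), as did 0 of 24 p53 targets (median 0.12). In the 9 arrays CDKN1A rose, at 0.82, and of the p53 targets 4 rose (CDKN1A, PMAIP1, GADD45A and SESN2) and PLK2 fell. PMAIP1, the gene of the pro-apoptotic protein NOXA, had 11463, 14911 and 16188 against 6028, 5978 and 9299 (1.02 ± 0.25, limma adjusted p = 0.194), control C being the highest control. Of 18 BCL2 family genes (median 0.09) and 24 death receptors, IAPs and caspases (median 0.02) 0 passed, and in the 9 arrays PMAIP1 alone of these rose. BIRC5, survivin, was at −0.55 (limma adjusted p = 0.194).

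STING1, the adaptor that relays cytosolic DNA signals to interferon genes, had 6232, 6021 and 8728 with perifosine, against 2375, 2374 and 2722 in control (log2 change 1.47 ± 0.21, limma adjusted p = 0.0134). It was the 1 riser among 35 interferon response and STING genes, 0 fell, and the median was 0.13. IRF9, a subunit of the interferon-activated factor ISGF3, had 4478, 4697 and 4172 against 3213, 2542 and 2380 (0.72, limma adjusted p = 0.0869), and IFIT1, an interferon-induced gene, was at 0.55 (0.176). Without the 3 arrays that stood apart 5 of the 35 rose, STING1, IRF9, ISG20, IFI44 and IFIT1, and the median was 0.07. Of 19 genes of MHC class I presentation 0 passed, with a median of 0.17, and in the 9 arrays 1, PSMB9, fell and the median was 0.09. That list's median stood at 0.13, 0.20 and 0.15 in perifosine arrays, against 0.17, 0.14 and −0.22 in controls A, B and C, so control C was the one array of the 6 below the others.

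The same array moved other lists. Control C minus its mates had a median log2 of −0.47 in oxidative phosphorylation genes and −0.87 in metallothioneins, whose medians for perifosine against control were 0.11 and 0.24 with 0 called. In the 9 arrays these medians turned to −0.05 and −0.02, again with 0 called. Their part in other results was not tested beyond leaving the array out. Of 30 cytosolic ribosomal proteins (median 0.05), 21 ER chaperones (0.19), 19 heat shock genes (−0.08), 21 oxidative stress genes (0.01), 30 hypoxia and glycolysis genes (−0.04), 18 cytosolic aminoacyl-tRNA synthetases (−0.02), 18 MYC-MAX network genes (−0.01) and 19 JAK-STAT and SOCS genes (−0.0014) 0 passed. In the 9 arrays DNAJB9 of the ER chaperones, JAK1 and SOCS2 rose and 1 hypoxia gene, ADM, fell. There the medians of the synthetases (0.09), MYC-MAX (0.0079), JAK-STAT (0.05) and ribosomal protein genes (−0.01) had the opposite sign. HSPA5, the main ER chaperone, was at −0.33 (limma adjusted p = 0.77) and HMOX1, the oxidative stress gene of heme oxygenase 1, at 0.36 (0.659).

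Of the 56 genes, 33 belonged to no list. Higher among them were LRFN5, a synaptic adhesion molecule (log2 change 1.34), GJB2, the gap junction protein connexin 26 (1.24), and SCNN1G and SCNN1B, both subunits of the epithelial sodium channel (1.22 and 0.82). LRFN5 had 2645, 3116 and 3285 with perifosine, against 1004, 1192 and 1405 in control (limma adjusted p = 0.0134). SCNN1G had 1067, 1266 and 901 against 387, 480 and 522 (limma adjusted p = 0.0153), its controls at or near background. The groups of both were well apart. GJB2 had 2944, 2680 and 2082 with perifosine, against 1143, 1060 and 1029 in control (limma adjusted p = 0.00765), with perifosine C lowest of the 3. Transcription regulators were also among them: BHLHE40, a repressor of the circadian clock (0.91), the Hippo pathway coactivator WWTR1, known as TAZ (0.92), the Notch target HEY1 (0.95), TBX2 (0.79) and the Wnt pathway protein DACT1 (1.12). TCIM rose by 1.0, NRROS, a partner of latent TGF-beta in myeloid cells and microglia, by 0.96, SERTM1 by 0.87, SLC35G2 by 0.61, the purine enzyme XDH by 0.89, the lipoprotein receptor relative LRP10 by 0.77 and ARRDC2 by 0.68. AKR1C4 rose by 0.98, which is uncertain since its probe may read other AKR1C genes.

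The remaining falls had varied roles. MEST, an imprinted gene, had 317, 289 and 330 with perifosine, against 706, 701 and 790 in control (log2 change −1.23, limma adjusted p = 0.0111), so it lay near background with the drug. OSR1, a transcription factor of mesoderm, had 1927, 1955 and 1850 against 4140, 3901 and 4129 (−1.09, limma adjusted p = 0.00766). CPA4, a secreted carboxypeptidase, had 558, 500 and 573 against 1466, 1358 and 873 (−1.15, limma adjusted p = 0.021), control C being the lowest control. BDNF, the neurotrophin, had 1951, 2040 and 1870 against 3411, 3827 and 3939 (−0.93, limma adjusted p = 0.0371), a result of its brightest probe. Another BDNF probe above background was at −0.21, and the dim ones went both ways, most of them with the opposite sign. The groups of these genes did not overlap. SYTL2, a vesicle protein, had 2321, 1882 and 1734 against 4084, 3801 and 4546 (−1.07, limma adjusted p = 0.0208). The retinaldehyde dehydrogenase ALDH1A1 had 2415, 2047 and 1633 against 3771, 4003 and 3749 (−0.94, limma adjusted p = 0.0244), perifosine C being lowest in both. The Rab GTPase regulator TBC1D2 (−0.81), the Wnt feedback gene AXIN2 (−0.68) and MEIS2 (−0.57) fell as well. KRTAP4-7 had 388, 454 and 445 with perifosine, against 890, 1358 and 952 in control, and fell by 1.29, although keratin-associated proteins have close paralogs and its probe may read them. Since KRTAP4-7, MEST and APLN were near background with perifosine, their falls are understated and not ranked against each other.

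The promoters of the fallers E2F2, CDT1 and CPA4 are shown because they carry motifs searched for. They are the 250 bases before the gene start in RefSeq, build GRCh38.p14, written 5′ to 3′ along the gene, with capitals marking an E2F site in E2F2 (chr1:23531234-23531483, minus strand) and CDT1 (chr16:88803539-88803788, plus strand) and AP-1 sites in CPA4 (chr7:130292911-130293160, plus strand).
E2F2: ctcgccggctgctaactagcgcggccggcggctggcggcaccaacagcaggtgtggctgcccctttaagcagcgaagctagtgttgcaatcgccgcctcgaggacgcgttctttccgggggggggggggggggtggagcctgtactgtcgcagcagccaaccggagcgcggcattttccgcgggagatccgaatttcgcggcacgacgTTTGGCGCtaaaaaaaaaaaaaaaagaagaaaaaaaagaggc
CDT1: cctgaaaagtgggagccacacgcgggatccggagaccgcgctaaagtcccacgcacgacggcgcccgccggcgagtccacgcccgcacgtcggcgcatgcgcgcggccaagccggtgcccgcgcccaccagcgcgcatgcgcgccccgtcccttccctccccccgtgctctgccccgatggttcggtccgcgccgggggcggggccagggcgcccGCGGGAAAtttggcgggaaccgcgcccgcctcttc
CPA4: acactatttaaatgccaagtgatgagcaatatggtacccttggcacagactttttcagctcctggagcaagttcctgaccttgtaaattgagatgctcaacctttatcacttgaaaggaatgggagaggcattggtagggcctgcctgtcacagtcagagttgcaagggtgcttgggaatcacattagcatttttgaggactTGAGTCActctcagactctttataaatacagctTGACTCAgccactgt

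The letters of 2 motifs were searched on both strands in the 41 of the 56 genes that the promoter table holds: AP-1 as TGACTCA, and E2F as TTTGGCGC, TTTCGCGC, TTTGCCGC or TTTCCCGC. The E2F letters were found in 2 of 14 fallers (E2F2 and CDT1), 0 of 27 risers and 2.79% of 27303 promoters. With the first pair alone (TTTGGCGC and TTTCGCGC), which was widened after its count was seen, they were in 1 of 14 fallers, 0 of 27 risers and 0.996% of all. The AP-1 letters were found in 1 of 14 fallers (CPA4), 0 of 27 risers and 4.16% of all. These are matches of letters in a short window, not sites shown to be bound.

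The direct comparison with the other single drug asked where perifosine differed from sorafenib. Perifosine minus sorafenib passed in 588 genes (3.12%), 251 positive (1.33%) and 337 negative (1.79%), and in 1346 in the 9 arrays. Of the 56 genes, 40 were among these. Since the perifosine arrays also chose the 56, that count is a description. Of the 38 risers 30 were higher with perifosine than with sorafenib, 1 was lower and the rest missed the threshold. The lower one was DDIT4, at 4641, 4862 and 5113 with perifosine, against 14386, 10763 and 11384 with sorafenib (log2 difference −1.31, limma adjusted p = 0.000519). MMP10 was at 8626, 8019 and 10699 with perifosine, against 1147, 718 and 666 with sorafenib (3.47, limma adjusted p = 1.64e-05), and CCL3L3 differed by 3.73. Of the 18 fallers 9 were lower than with sorafenib. E2F2, UNG and CDT1 were not among those, with differences of −0.32, −0.17 and 0.04 (limma adjusted p = 0.222, 0.543 and 0.922), which does not show that the 2 drugs act alike on them. The replication list's median difference between the drugs was −0.09, and those of ATF4 targets and aminoacyl-tRNA synthetases were −0.42 and −0.48.

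When sorafenib was present, no gene passed for added perifosine. Between the combination and sorafenib alone 0 of 18852 genes passed in limma (643 at an unadjusted p under 0.05). This comparison includes sorafenib B and combination A, which stood apart, and it was not refitted without them. The 6 arrays of the combination and of sorafenib alone played no part in choosing the 56 genes except through the spread. Of the 38 risers 30 had a positive change there, with a median of 0.09 against 0.98 without sorafenib, and 14 of the 18 fallers a negative one, with a median of −0.19 against −0.87. Among all genes 49.5% were positive. The 56 were chosen by their change without sorafenib, which enlarges that side, so part of the gap between these medians was fixed by the choice. MMP10 had 1063, 904 and 698 in the combination, against 1147, 718 and 666 with sorafenib alone, and MMP1 had 313, 328 and 308 against 284, 297 and 308, near background throughout. FERMT1 had 3202, 3245 and 3256 against 3197, 3561 and 3155. The groups overlapped in all 3 genes. TCIM kept the most, at 1698, 1716 and 1432 in the combination, against 932, 650 and 996 with sorafenib (0.93 ± 0.18, SE), followed by THBD (0.67) and DDIT4 (0.60).

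The difference itself (combination minus sorafenib, less perifosine minus control) passed in 3 genes (0.0159%), all 3 of them negative: MMP10 at −2.73 ± 0.30 (SE, limma adjusted p = 0.0127), MMP1 at −2.21 ± 0.19 (0.00218) and FERMT1 at −1.20 ± 0.15 (0.0281). At an unadjusted p under 0.05 there were 921 genes, and in the 9 arrays 2 of the 3 passed. RHOB missed the threshold at −1.67 (limma adjusted p = 0.0787), and CCL3L3 at −2.11 (0.274). The perifosine and control arrays enter this test as well, so it is no separate measurement of the rises above. For the replication list the median perifosine effect was −0.05 with sorafenib and −0.44 without it, and for the cholesterol list −0.18 with and 0.34 without. The plot of both effects shows most of the 56 genes, chosen by the other axis, close to 0 on the axis with sorafenib.

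**Figure D5:**
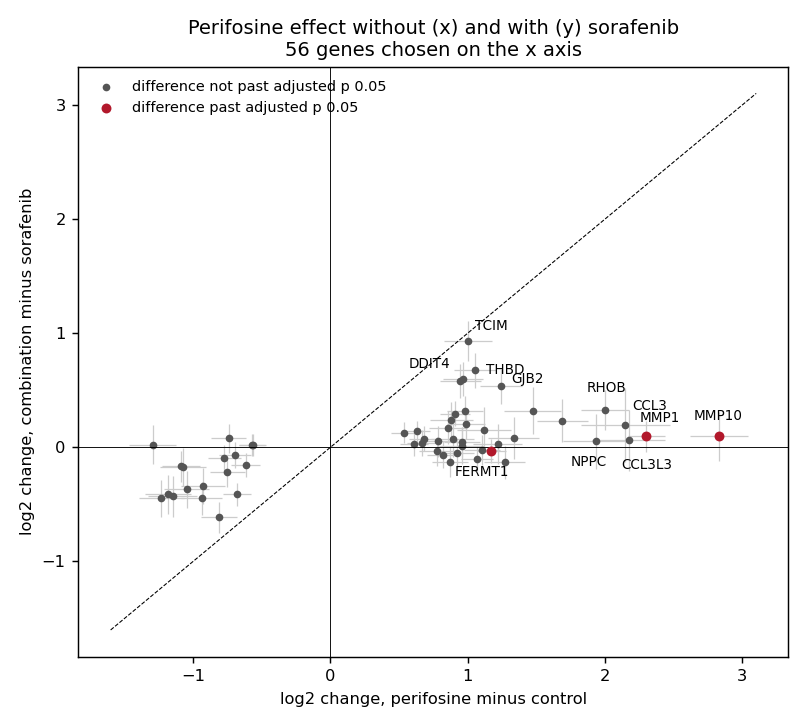
Each point is 1 of the 56 genes, with its log2 change for perifosine minus control on the x axis and for the combination minus sorafenib on the y axis; bars are ± 1 SE, the dashed line marks equal changes, and red points passed the test of the difference. MMP10, MMP1 and FERMT1 lie near 0 on the y axis (0.10, 0.10 and −0.03), while TCIM lies near the dashed line.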

How the data were processed

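Total RNA was labelled as biotinylated cRNA and hybridised to Illumina arrays, per the labels' protocols, and BeadStudio is named in the submitters' processing notes, with settings and version not given in the sources used here. Intensities were deposited on a linear scale, and the sorted values of the 12 arrays differ by at most 2.34%, so they look quantile normalized by the authors, with no background subtracted. A second table with signals before normalization has 12 columns whose names match no sample, and these were not used, so no detection calls were available.

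Of 48803 probes, 28098 had 1 gene symbol, 13 several and 20692 were not listed in the platform annotation. For 28059 the gene was found in RefSeq (GRCh38.p14) and for 39 it was not. The brightest probe by mean log2 was kept for each of 18852 genes, and 6132 genes had several. Of 38 other probes of the 56 called genes, 29 had the same sign and 9 the opposite.

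Log2 intensities were fitted with limma 3.58.1 in R 4.3.3 as 4 group means over 12 arrays (8 residual and 3.52 prior degrees of freedom). Contrasts were perifosine minus control, perifosine minus sorafenib, combination minus sorafenib, and the difference of the 2 perifosine effects, each two-sided with Benjamini-Hochberg adjustment over all genes and a threshold of 0.05. The script was tested on simulated data. The members, the 46 gene lists (972 of 1040 entries measured) and the tests were chosen with earlier results of these data known. Counts of called members within a list are therefore descriptions and no test of a pathway. The result of 1 list is not reported here. Named genes are the 15 largest rises and 12 largest falls among called genes whose groups did not overlap, and every called list member. Up to 3 members of each list with the lowest p that were not called, CDT1, UNG, DDIT4, DUSP6 and TRIB3, and other called genes by role are named too. Other genes named (MMP3, CCL4, TNFRSF8, CD40, FUT4, COL1A2, CDH5, VWF and genes listed without the 3 arrays that stood apart) were added after their values were seen. Alternatives were a replicate block, a filter on dim genes, normexp (offset 50), cyclic loess, the mean of a gene's probes, a trend and robust prior, array weights, only the groups compared, and each array left out.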

Additional observations from a re-analysis of the deposited data

Results flagged for a closer look

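In 3 genes the perifosine effect differed between cells with and without sorafenib by limma's test of the difference itself, which is what drew attention to them. On the log2 scale, combination minus sorafenib less perifosine minus control was −2.73 for MMP10 (adjusted p = 0.0127), −2.21 for MMP1 (0.00218) and −1.20 for FERMT1 (0.0281). All 3 intensities with perifosine alone exceeded all 3 of the combination in each gene. MMP1 was near background in the combination, sorafenib and control arrays, so its difference is understated. The groups of 3 arrays were too small for a check of single outlying samples.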

How the results depend on the processing

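None of the 56 called genes reversed its direction under any of the 21 alternatives, and direction was not checked for the other named genes. The groups of the 56 did not overlap, so fits that left out or reweighted arrays could not reverse one. Only normexp, cyclic loess and the mean of a gene's probes could have done so. Over called genes, 774 of the gene and setting pairs kept the call and 397 lost it, and over the other named genes 2582 stayed uncalled and 118 became called. The 56 genes changed by perifosine became 293 without control C, sorafenib B and combination A, 349 with array weights, 126 with only the groups compared, 37 with the replicate block, 29 with normexp and 34 with a trend and robust prior, and leaving out single arrays gave 11 to 155. The share higher was 67.9% in the reported fit, 57.0% with array weights, 75.9% with normexp and at least 76.9% with a control or perifosine array left out, all of 11 genes without perifosine B and all of 14 without perifosine C being higher. Of the list medians under each setting 899 moved by less than the spread and 65 by more, and without the 3 arrays some changed sign. The 588 genes differing from sorafenib became 1346 without those 3 arrays, 1439 with array weights and 208 with only the groups compared, and 254 to 651 with single arrays left out, perifosine A, B and C giving 312, 279 and 254. The 3 genes whose effect differed became 1 with the filter on dim genes, which left MMP1 untested, and 15 with array weights. With single arrays left out there were 1 to 4, and the count was 1 without control C, perifosine A, perifosine C or combination B. A fit of the groups compared could not be made for it, since it needs all 4. The causes were not tested. Cyclic loess gave 80 genes and the filter on dim genes, which tested 9587 genes, gave 38 (27 higher and 11 lower). Among the 56, MMP1, ESAM, HPGD, ITGB3 and KRTAP4-7 were removed by that filter and so not tested under it. Same-letter arrays did not deviate together (correlations of −0.06, 0.0032 and −0.04). No pairing by letter was thus seen, though 3 arrays a group cannot settle it. The replicate block's 37 genes shared 33 with the 56. Genes near background are limited by the lack of background subtraction and detection calls.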

Other observations

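Without control C, sorafenib B and combination A, a further 237 genes passed for perifosine against control, in a fit whose spread is likely understated. The largest rises among them were ITGA2, the integrin α2 subunit (log2 change 1.37), PTGS2, cyclooxygenase-2 (1.33), PMAIP1, which encodes NOXA (1.23), the microtubule gene MAP2 (1.16) and TRIB1, a pseudokinase (1.06). ASNS, asparagine synthetase, was at 0.87, SOX4 at 0.84, and PLAUR, the urokinase receptor, at 0.79. The largest falls were RGS4, a brake on G protein signalling (−1.36), KRT80 (−1.24), NR2F1 (−0.94), LMO1 (−0.92) and CHAF1A, a subunit of the histone chaperone CAF-1 (−0.92). EME1, a nuclease subunit of recombination, was at −0.76 and PLK2 at −0.88. Among 33 ATF4 targets in these 9 arrays, 5 rose (DDIT4, ASNS, PCK2, SESN2 and CEBPB) and 1, STC2, fell (−0.88).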
